A study of Homo sapiens with 8 samples.

Results

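PARM1, GREB1, MICALL1, MAPKBP1 and FHL2 are 5 genes of the 26364 in the count table that were selected on their readout: their RNA had risen after temozolomide (TMZ) in both glioblastoma clones of the study, and they were picked as less studied than the p53 target genes that rose beside them. All 5 were found by symbol and passed the filter on low counts, as did 14201 genes in all. Their TMZ effects are therefore given as a description without a test, and tests are given for the differences between the clones.

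The cells were LN229, an established human glioblastoma line, stably transfected with pcDNA3.1 and grown under G418. The Surv-GFP clone (D6) carried survivin fused to eGFP with a functional nuclear export signal (NES), located mainly in the cytoplasm. In the SurvNESmut-GFP clone (L2) the NES of the same fusion protein was mutated, so that it was trapped in the nucleus. Each construct was represented by a single clone, so the construct cannot be told apart from other differences between clones. Both clones were left untreated or were exposed to 50 µM TMZ, a DNA-alkylating drug, for 48 h, and no DMSO control is named for the untreated cells. The 4 groups held 2 libraries each, with the replicate letters a and b. The study describes its RNA-Seq samples as independent biological replicates that were also run as technical duplicates, and the labels do not say which of these the letters mark. The p-values measure the spread between letters, which is that between cultures only if the letters mark biological replicates.

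The libraries held 15826923 to 18861603 reads on genes. BIRC5, the gene of survivin, ranged from 1113 to 1152 CPM (counts scaled to a common library size with TMM factors) in untreated and from 1938 to 2029 in TMZ-treated Surv-GFP cells, but from 407 to 414 and from 253 to 262 in SurvNESmut-GFP cells, with transgene and endogenous RNA counted together. Of 12 glial and glioma markers, 10 were above 1 CPM in every group, while GFAP and SOX9 stayed at or below 0.921 CPM. Markers of endothelium and epithelium stayed under 1 CPM, and CD68 was the leukocyte marker above it. Of the neuronal markers, SNAP25 was at 8.45 to 19.7 CPM and SYP at 1.38 to 3.33 CPM, and RBFOX3 stayed under 1 CPM. The letters of each group differed by more than counting noise, most of all in TMZ-treated SurvNESmut-GFP cells, where chi-square per degree of freedom was 5.75 against 2.204 to 2.662 in the other groups.

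The 5 genes belong to different systems. PARM1 encodes a mucin-like membrane glycoprotein first described in the prostate. GREB1 is an early target gene and cofactor of the estrogen receptor in breast cancer cells. MICALL1 encodes an adaptor of tubular recycling endosomes, where it links Rab8a and Rab35 to the membrane-shaping EHD1. MAPKBP1 encodes a WD40-repeat scaffold that binds JNK, a stress-activated kinase. FHL2 encodes a LIM-only adaptor that moves between focal adhesions and the nucleus, where it acts as a cofactor of several transcription factors. FHL2 is itself known as a target of serum response factor (SRF), which acts with MRTF cofactors on genes of the actin cytoskeleton.

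Promoter sequences were taken from RefSeq (GRCh38.p14), which gave entries for 4 of the 5 genes. GREB1 had none. The sequences are shown because the 5 genes rose together, so that the sequence before each start could be compared. Bases that GENCODE 29 places in an exon of the same gene were left off, except in the second FHL2 sequence, which is a stretch of 30 bases around a match. Capitals mark matches to the motifs searched. All are written 5′ to 3′ on the strand of the gene.
PARM1, chr4:74932866-74933094, plus strand: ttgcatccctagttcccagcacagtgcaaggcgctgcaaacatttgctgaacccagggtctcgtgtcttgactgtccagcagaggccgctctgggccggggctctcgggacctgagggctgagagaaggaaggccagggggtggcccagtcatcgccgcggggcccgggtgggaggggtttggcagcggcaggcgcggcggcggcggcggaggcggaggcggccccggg
MICALL1, chr22:37906047-37906296, plus strand: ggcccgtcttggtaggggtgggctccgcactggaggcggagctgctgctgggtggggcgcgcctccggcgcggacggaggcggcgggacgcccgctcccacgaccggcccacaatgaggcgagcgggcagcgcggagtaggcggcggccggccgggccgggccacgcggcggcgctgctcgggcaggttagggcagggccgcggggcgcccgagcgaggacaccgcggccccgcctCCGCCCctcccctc
MAPKBP1, chr15:41774234-41774433, plus strand: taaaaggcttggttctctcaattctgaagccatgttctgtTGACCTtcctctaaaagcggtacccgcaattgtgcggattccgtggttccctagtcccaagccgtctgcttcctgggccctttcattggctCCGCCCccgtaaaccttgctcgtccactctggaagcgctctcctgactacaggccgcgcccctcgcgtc
FHL2 upstream start, chr2:105438514-105438763, minus strand: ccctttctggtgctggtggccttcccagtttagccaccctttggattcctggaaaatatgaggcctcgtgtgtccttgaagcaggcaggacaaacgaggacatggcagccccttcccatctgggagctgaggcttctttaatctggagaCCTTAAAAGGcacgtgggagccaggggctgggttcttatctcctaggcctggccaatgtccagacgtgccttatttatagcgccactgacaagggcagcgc
FHL2 downstream start, chr2:105399091-105399120, minus strand: gcgtgcatctCCTTATATGGtcaaatgaca

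Each motif was searched on both strands in the 250 bases before the start, in 7 windows of the 4 genes (4 of FHL2) and in all 35116 promoter entries. A CArG box, the element bound by SRF, was present in 3 of the 4 FHL2 windows, CCTTAAAAGG at bases -101 to -92 from the upstream start and CCTTATATGG at -59 to -50 from the downstream start. The third of these windows overlaps the first and holds the same CCTTAAAAGG. A CArG box was found in 1.2% of all entries and in no window of PARM1, MICALL1 or MAPKBP1. The GC box GGGCGG was found in 4 of the 7 windows, at least once for each of the 4 genes and in part within the bases left off above, and in 42.6% of all entries. The nuclear receptor hexamer AGGTCA was in the MAPKBP1 window and in 12.1% of all entries. TGATGNAA, the ATF4 and C/EBP element, was in 1 FHL2 window and in 3.1% of entries. That FHL2 window, chr2:105399668-105399917, is not printed above and holds the match at bases -145 to -138. The p53 decamer, TGANTCA (AP-1) and TGACGTCA (CRE) were in none of the 7 windows, against 5.6%, 6.6% and 1.6% of all entries. No match overlapped a match to another motif. The windows differed in base composition, from 81.2% G and C for MICALL1 and 71.2% for PARM1 to 60.0% for MAPKBP1, and the 4 FHL2 windows ranged from 53.6% at the upstream start to 72.0% at the downstream start, beside a median of 58.0% over all entries.

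The level of the 5 genes in each library is given next, in CPM. Fold changes compare the means of 2 libraries. By edgeR's quasi-likelihood F test at a Benjamini-Hochberg adjusted p under 0.05, TMZ raised 30.1% of the 14201 genes in Surv-GFP cells and 18.6% in SurvNESmut-GFP cells, and lowered 28.9% and 19.1%. All 5 genes were among those raised in both clones, as their choice required, together with 1665 genes in all. Ranked by the smaller of the 2 log2 fold changes, GREB1 stood at position 28, PARM1 at 41, MAPKBP1 at 82, MICALL1 at 89 and FHL2 at 122 of 14201.

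**Figure D1:**
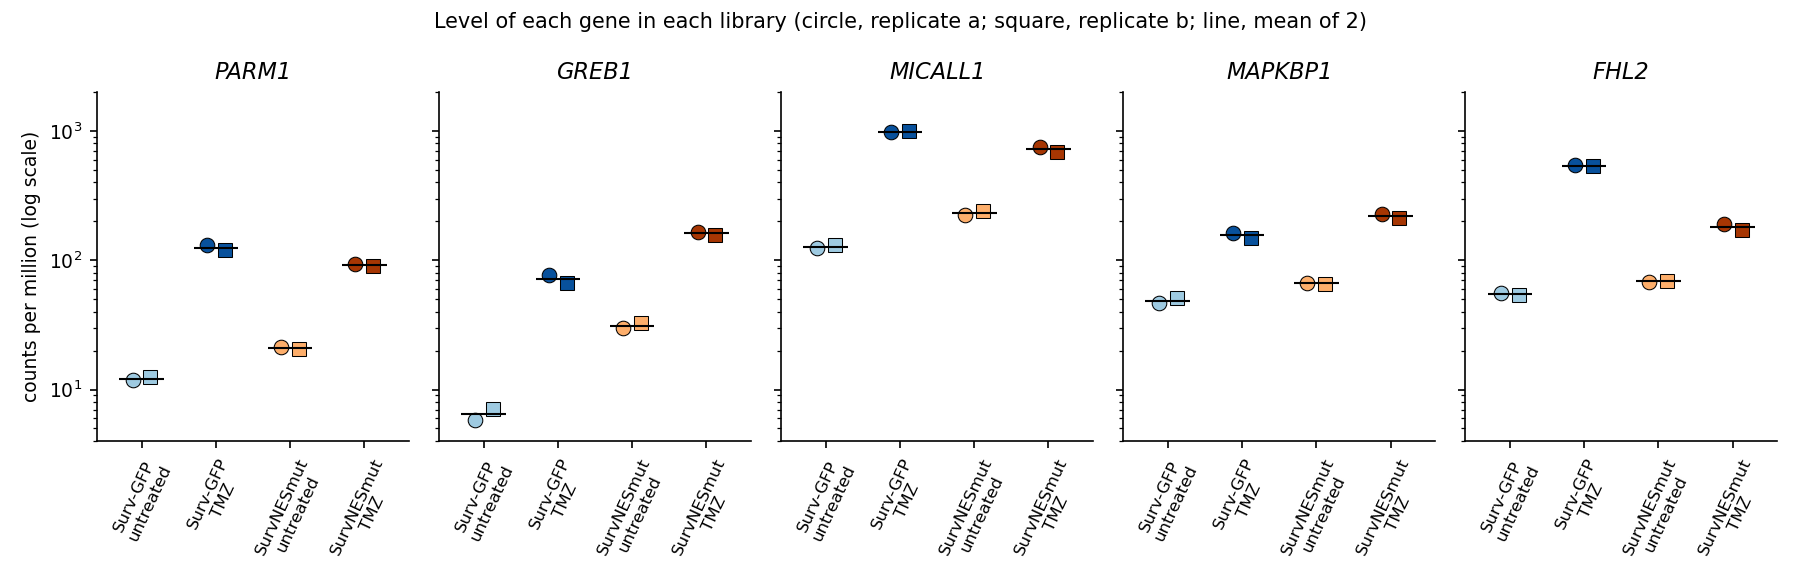
CPM of each gene (log axis) in the 8 libraries, by group, with circles for replicate a, squares for replicate b and a line for the mean of 2. Every TMZ-treated library lies above every untreated library of either clone, and the order of the clones turns between untreated and treated cells for PARM1, MICALL1 and FHL2.

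PARM1, the mucin-like glycoprotein, was at 11.8 and 12.5 CPM in untreated and at 131 and 119 CPM in TMZ-treated Surv-GFP cells. The SurvNESmut-GFP clone had 21.1 and 20.7 CPM untreated and 94.3 and 90.6 CPM after TMZ. No 2 groups overlapped, and the untreated Surv-GFP libraries were lowest and the treated ones highest. The means rose 10.3-fold in Surv-GFP and 4.42-fold in SurvNESmut-GFP cells.

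GREB1 had the largest log2 fold change of the 5 in each clone. In untreated Surv-GFP cells its count was the lowest of the 5, with 107 and 129 counts or 5.80 and 7.12 CPM, and TMZ brought it to 76.3 and 66.3 CPM. SurvNESmut-GFP cells had 29.8 and 32.5 CPM untreated and 166 and 156 CPM after TMZ. The SurvNESmut-GFP libraries were thus the higher ones in both conditions. GREB1 rose 11.0-fold in Surv-GFP and 5.18-fold in SurvNESmut-GFP cells, while the rise in CPM was 64.9 and 130, so the clone with the larger fold had the smaller absolute gain.

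MICALL1, the endosomal adaptor, had the most reads of the 5. It was at 125 and 130 CPM in untreated Surv-GFP cells and reached 981 and 997 CPM after TMZ. In SurvNESmut-GFP cells the levels were 222 and 242 CPM untreated and 751 and 692 CPM after TMZ. Groups did not overlap, and the means rose 7.75-fold in the Surv-GFP and 3.11-fold in the other clone.

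MAPKBP1, the JNK-binding scaffold, was at 46.6 and 51.0 CPM in untreated and at 161 and 150 CPM in treated Surv-GFP cells. SurvNESmut-GFP cells had 66.7 and 65.6 CPM untreated and 229 and 213 CPM after TMZ. SurvNESmut-GFP libraries were the higher ones in both conditions, as for GREB1. The means rose 3.19-fold and 3.34-fold in the 2 clones.

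FHL2, the LIM-only cofactor, was at 55.8 and 54.1 CPM in untreated Surv-GFP cells and at 542 and 534 CPM after TMZ. The SurvNESmut-GFP clone was at 68.0 and 69.5 CPM untreated and at 189 and 171 CPM after TMZ. The untreated libraries of both clones lay close together without overlap, and the treated ones were far apart. The fold change was 9.79 in Surv-GFP but 2.62 in SurvNESmut-GFP cells, and the rise in CPM was 483 against 111.

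Long transcripts collect more reads, so levels were compared between genes as CPM per kilobase of exon, with exon lengths from GENCODE 29. In untreated Surv-GFP cells the order was MICALL1 at 21.4 ± 0.659 (SD, n = 2), FHL2 at 8.29 ± 0.185, MAPKBP1 at 4.71 ± 0.300, PARM1 at 2.41 ± 0.0926 and GREB1 at 0.523 ± 0.0756 CPM per kilobase. Untreated SurvNESmut-GFP cells had the same order, from 38.9 ± 2.31 for MICALL1 to 2.52 ± 0.153 for GREB1. After TMZ PARM1 stood above MAPKBP1 in Surv-GFP cells, at 24.8 ± 1.58 against 15.02 ± 0.795 CPM per kilobase. In treated SurvNESmut-GFP cells MAPKBP1 stayed above PARM1, at 21.3 ± 1.13 against 18.4 ± 0.511, and GREB1 followed at 13.1 ± 0.580. Neighbours in these orders differed by more than their SDs. The place of GREB1 depended on the length used, since per kilobase of the longest coding transcript it was at 19.02 in treated SurvNESmut-GFP cells and PARM1 at 18.5. GENCODE 29 places an antisense gene opposite 7.61% of the exon bases of MAPKBP1 and 1.84% of those of FHL2, and no source used here states whether counting used strand, so reads from these stretches cannot be told apart.

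The clones were first compared without TMZ. This contrast did not enter the choice of the genes, but its libraries are also those of the TMZ effects. All 5 genes were higher in untreated SurvNESmut-GFP than in untreated Surv-GFP cells, where 34.7% of all tested genes were called higher and 29.4% lower. GREB1 differed most, by a log2 difference of 2.27 ± 0.114 (SE; 4.82-fold; edgeR adjusted p = 4.1e-11). MICALL1 differed by 0.86 ± 0.0566 (adjusted p = 1.1e-09) and PARM1 by 0.79 ± 0.0878 (adjusted p = 7.6e-07) on the log2 scale. The differences were smaller for MAPKBP1, at 0.44 ± 0.0651 (adjusted p = 1.8e-05), and for FHL2, at 0.32 ± 0.0605 (adjusted p = 0.00019). Over all tested genes the median log2 difference was 0.03.

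With TMZ the 5 genes parted. GREB1 and MAPKBP1 were still higher in SurvNESmut-GFP cells, and PARM1, MICALL1 and FHL2 were lower, beside 34.5% of all tested genes called higher and 34.7% called lower. FHL2 was lower in SurvNESmut-GFP cells by a log2 difference of -1.58 ± 0.0528 (edgeR adjusted p = 3.1e-13), at 0.335 times its Surv-GFP level. PARM1 differed by -0.44 ± 0.0553 (adjusted p = 2.8e-06) and MICALL1 by -0.46 ± 0.0531 (adjusted p = 1.0e-06). GREB1 was higher by 1.18 ± 0.0679 (adjusted p = 1.9e-10) and MAPKBP1 by 0.51 ± 0.0556 (adjusted p = 5.0e-07). The ratio of SurvNESmut-GFP to Surv-GFP means thus moved from 1.25 without to 0.335 with TMZ for FHL2, from 1.82 to 0.729 for MICALL1, and from 1.72 to 0.740 for PARM1. For GREB1 it moved from 4.82 to 2.26, and for MAPKBP1 from 1.36 to 1.42.

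**Figure D2:**
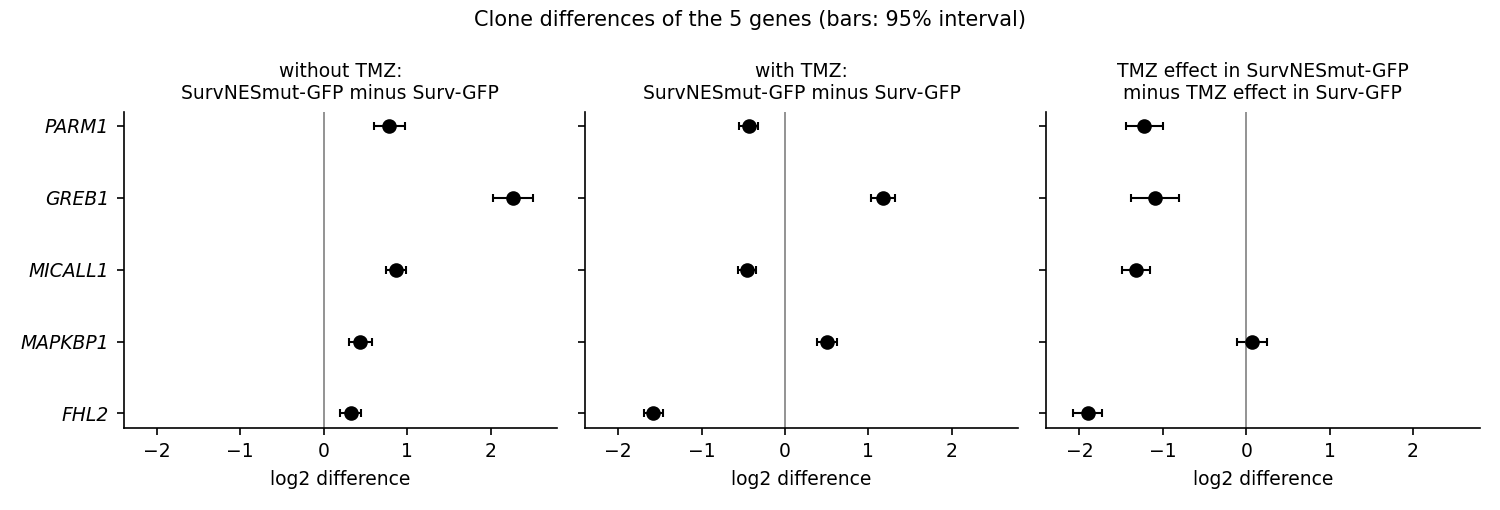
Log2 differences of the 5 genes with 95% intervals: SurvNESmut-GFP minus Surv-GFP without TMZ (left) and with TMZ (middle), and the TMZ effect in SurvNESmut-GFP minus that in Surv-GFP (right). All 5 genes lie to the right of 0 without TMZ, and 3 lie to the left with TMZ. The right panel is built from the contrasts used to choose the genes, so its intervals are a description and not a test.

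The TMZ effects of the clones were then compared with each other. This difference is built from the contrasts used to choose the genes, so for the 5 it is a description without a test. Its value was below 0 for 4 of the 5 genes, which for these risen genes means a smaller rise in SurvNESmut-GFP cells. Over all tested genes 20.2% were called below 0 and 16.6% above 0, from which nothing is read about the 5. These shares include genes that fell, for which a value below 0 can mean a larger fall. The log2 difference between effects was -1.90 ± 0.0800 (SE) for FHL2, -1.32 ± 0.0776 for MICALL1, -1.22 ± 0.104 for PARM1 and -1.09 ± 0.138 for GREB1. For MAPKBP1 it was 0.07 with a 95% interval from -0.114 to 0.249, which does not show that the effects were equal.

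The paralogs of the 5 genes were examined in the same fit. Of 10 listed paralogs 7 were tested. TMZ raised 2 and lowered 2 of them in Surv-GFP cells and raised 3 and lowered 1 in SurvNESmut-GFP cells. Among the relatives of MICALL1, which share its calponin homology and LIM domains, MICALL2 did not pass the test in either clone, with log2 fold changes of -0.12 (edgeR adjusted p = 0.128) and -0.04 (adjusted p = 0.591). MICAL1, an actin-oxidising monooxygenase, did not pass either, with values of -0.02 and 0.05.

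MICAL2, another monooxygenase of this family that acts on nuclear actin, rose with MICALL1. It was at 4.50 and 5.35 CPM in untreated and at 28.5 and 22.7 CPM in treated Surv-GFP cells, and at 41.7 and 42.7 CPM untreated and 95.7 and 85.8 CPM treated in SurvNESmut-GFP cells. The rise was 2.38 ± 0.135 on the log2 scale for Surv-GFP (edgeR adjusted p = 2.5e-10) and 1.11 ± 0.0826 for SurvNESmut-GFP (adjusted p = 2.9e-08). It was also higher in the untreated SurvNESmut-GFP clone, by 3.10 on the log2 scale. MICAL3 went the other way and fell by 0.48 in Surv-GFP (adjusted p = 3.6e-07) and by 0.18 in SurvNESmut-GFP cells (adjusted p = 0.00802).

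The relatives of FHL2 moved less than FHL2. FHL3 rose by 0.73 on the log2 scale in Surv-GFP cells (edgeR adjusted p = 1.0e-06) and by 0.38 in SurvNESmut-GFP cells (adjusted p = 0.00421), from 19.9 to 33.1 and from 14.6 to 19.1 CPM in the mean. FHL1 fell by 0.49 in Surv-GFP cells (adjusted p = 0.00029), from 18.8 to 13.3 CPM, and its log2 fold change was -0.05 in SurvNESmut-GFP cells (adjusted p = 0.724). FHL5 had 0 counts in every library, which allows up to 3 counts by counting error. WDR62, the centrosomal paralog of MAPKBP1, had a log2 fold change of -0.06 in Surv-GFP cells (adjusted p = 0.620) and rose by 0.24 in SurvNESmut-GFP cells (adjusted p = 0.0226). GREB1L had 1 count in all libraries together and MICALCL had at most 11 in a group.

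**Figure D3:**
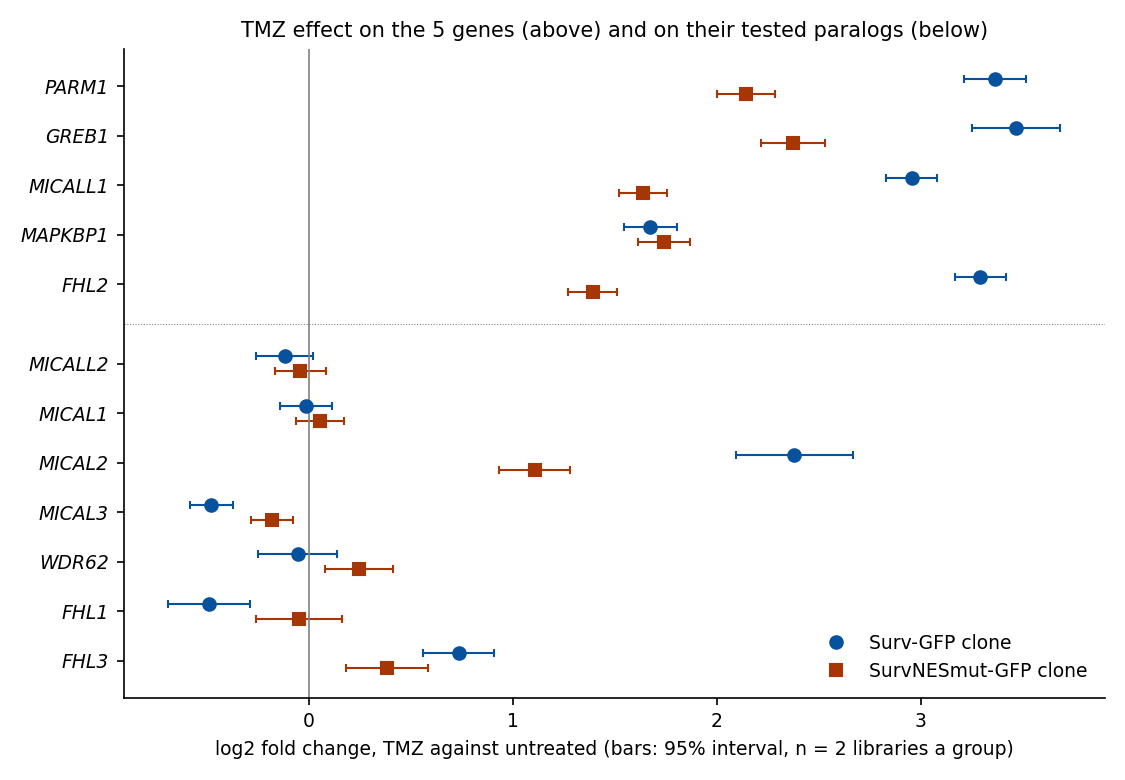
Log2 fold change of TMZ against untreated, with 95% intervals, in the Surv-GFP (circles) and SurvNESmut-GFP clone (squares), for the 5 genes (above the dotted line) and their 7 tested paralogs (below). The 5 genes lie between 1.39 and 3.47, and among the paralogs MICAL2 is the nearest to them, with 2.38 and 1.11. The 5 genes were chosen on these effects, so their intervals are a description and not a test.

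Steroid receptors known to act on GREB1 were looked up in the same libraries. ESR1, the estrogen receptor gene, had 1 count in all 8 libraries together, in a TMZ-treated SurvNESmut-GFP library. PGR had 0 counts, and ESR2 had 10 to 18 counts per group, or at most 0.650 CPM in a library. NR3C1, the glucocorticoid receptor gene, was expressed at 104.8 to 145.4 CPM. GREB1 thus rose where ESR1 and PGR were at or near 0 counts.

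Of 28 tested steroid receptors, cofactors and hormone-responsive genes, TMZ raised 10 and lowered 11 in Surv-GFP cells and raised 8 and lowered 4 in SurvNESmut-GFP cells, with median log2 fold changes of 0.03 in both clones, beside 0.00 over all tested genes. In this and the next paragraphs paired values give the log2 fold change in Surv-GFP cells first, and genes said to rise or fall passed edgeR's test at an adjusted p under 0.05. XBP1, a transcription factor of the unfolded protein response that is also estrogen-responsive in breast cells, rose by 2.04 in Surv-GFP and by 0.76 in SurvNESmut-GFP cells. The coactivators NCOA3 and CREBBP rose in Surv-GFP cells by 0.46 and 0.51, and had values of -0.08 and 0.01 in SurvNESmut-GFP cells that did not pass the test. SGK1, a kinase gene induced by glucocorticoids, fell by 1.14 and 0.28. The membrane estrogen receptor GPER1 fell by 1.68 in Surv-GFP cells.

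The list drawn around PARM1 holds mucins, mucin-like proteins and some membrane glycoproteins of other types. Of its 11 tested genes TMZ raised 3 and lowered 5 in Surv-GFP cells (median log2 fold change -0.41). In SurvNESmut-GFP cells it raised 3 and lowered 2 (median -0.27). The syndecan SDC1 rose by 0.79 and 1.63, and SDC4 by 0.93 and 0.19. MCAM, a cell adhesion molecule, rose by 0.37 in Surv-GFP cells. These syndecans and MCAM are not mucins, and they were the 3 genes raised in Surv-GFP cells. Podocalyxin, PODXL, fell by 1.55 and 1.08, the sialomucin CD164 by 0.24 and 0.27, and PODXL2 by 0.67 in Surv-GFP cells.

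The recycling endosome list holds the Rab, EHD and PACSIN proteins that work with MICALL1. Of its 34 tested genes TMZ raised 14 and lowered 9 in Surv-GFP cells and raised 12 and lowered 5 in SurvNESmut-GFP cells, with median log2 fold changes of 0.08 and 0.05. RUSC1, an adaptor that takes part in vesicle transport, rose by 0.40 and 0.66, the membrane-bending PACSIN3 by 0.31 and 0.53, and EHD2, an ATPase of caveolae, by 0.48 and 0.27. DPYSL2, a collapsin response mediator, fell by 0.99 and 0.25, and the transferrin receptor TFRC, the classic cargo of recycling endosomes, by 0.59 and 0.15. PACSIN2 fell by 0.46 in Surv-GFP cells. EHD1, RAB8A and RAB35, partners of MICALL1 named after their values were seen, were not alike. By edgeR the log2 fold changes were 0.49 and 0.66 for EHD1 (adjusted p = 3.4e-05 and 3.3e-06), -0.06 and -0.06 for RAB8A (adjusted p = 0.439 and 0.456), and 0.18 and -0.07 for RAB35 (adjusted p = 0.0158 and 0.392).

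In the JNK signaling list around MAPKBP1, TMZ raised 15 and lowered 11 of 35 tested genes in Surv-GFP cells (median log2 fold change 0.12), and raised 9 and lowered 7 in SurvNESmut-GFP cells (median 0.00). Of the genes named here those that rose most encode phosphatases that act on JNK. DUSP10 rose by 3.29 and 0.87, and DUSP8 by 2.89 and 0.96. SH3RF1, a scaffold of the JNK pathway also called POSH, rose by 1.29 and 0.34. The upstream kinase gene MAP3K1 fell by 0.78 in Surv-GFP cells, MAP3K4 by 0.15 and 0.39, and the JNK substrate ATF2 by 0.17 and 0.38. The difference between TMZ effects, SurvNESmut-GFP minus Surv-GFP, was called below 0 for 12 of the 35 genes and above 0 for 3. Of all tested genes 20.2% were called below 0 and 16.6% above 0. The sign does not give the strength of the response, since a gene that fell more in SurvNESmut-GFP cells also has a value below 0.

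Of 36 tested SRF and MRTF targets, LIM proteins and focal adhesion genes, the group to which FHL2 belongs, TMZ raised 13 and lowered 10 in Surv-GFP cells and raised 13 and lowered 4 in SurvNESmut-GFP cells, with median log2 fold changes of -0.01 and 0.09. Smooth muscle actin ACTA2 rose by 2.39 and 1.57 on the log2 scale and the actin-binding calponin CNN1 by 3.62 and 1.06. Zyxin, ZYX, a LIM protein of focal adhesions, rose by 1.02 in Surv-GFP cells. The actin genes ACTB and ACTG1 are also SRF targets. ACTB fell by 0.54 and 0.16. ACTG1 fell by 0.57 and the LIM gene CSRP1 by 0.94 in Surv-GFP cells, and neither passed the test in SurvNESmut-GFP cells. FHL2 thus moved with some SRF targets and against others.

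Among 20 tested binding partners of FHL2, TMZ raised 7 and lowered 7 in Surv-GFP cells (median log2 fold change 0.01), and raised 5 and lowered 8 in SurvNESmut-GFP cells (median -0.16). FOSL1, an AP-1 subunit, rose by 1.48 and 0.14, the p53 ligase gene MDM2 by 1.88 and 0.92, and the ubiquitin ligase gene CBL by 0.86 and 0.21. CTNNB1, which encodes β-catenin, fell by 0.54 and 0.55, SKI by 0.53 and 0.39, and NFATC2 by 1.26 and 1.48.

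The p53 targets gave the scale of the response. TMZ raised 25 and lowered 2 of 29 in Surv-GFP cells (median log2 fold change 1.48) and raised 24 and lowered 1 in SurvNESmut-GFP cells (median 0.78). The stress cytokine gene GDF15 rose by 6.53 and 2.67, CDKN1A, which encodes p21, by 3.52 and 1.96, and SESN2 by 2.82 and 2.03. The polymerase gene POLH fell by 0.64 in Surv-GFP cells and CCNG1 by 0.33 in both clones. The difference between TMZ effects was below 0 for PARM1, GREB1, MICALL1 and FHL2. It was called below 0 for 19 of the 29 p53 targets and above 0 for 3, with a median of -0.57. Of all tested genes, with those that fell, 20.2% were called below 0 and 16.6% above 0. These counts are of a list chosen with results of these libraries known and are not independent evidence.

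**Figure D4:**
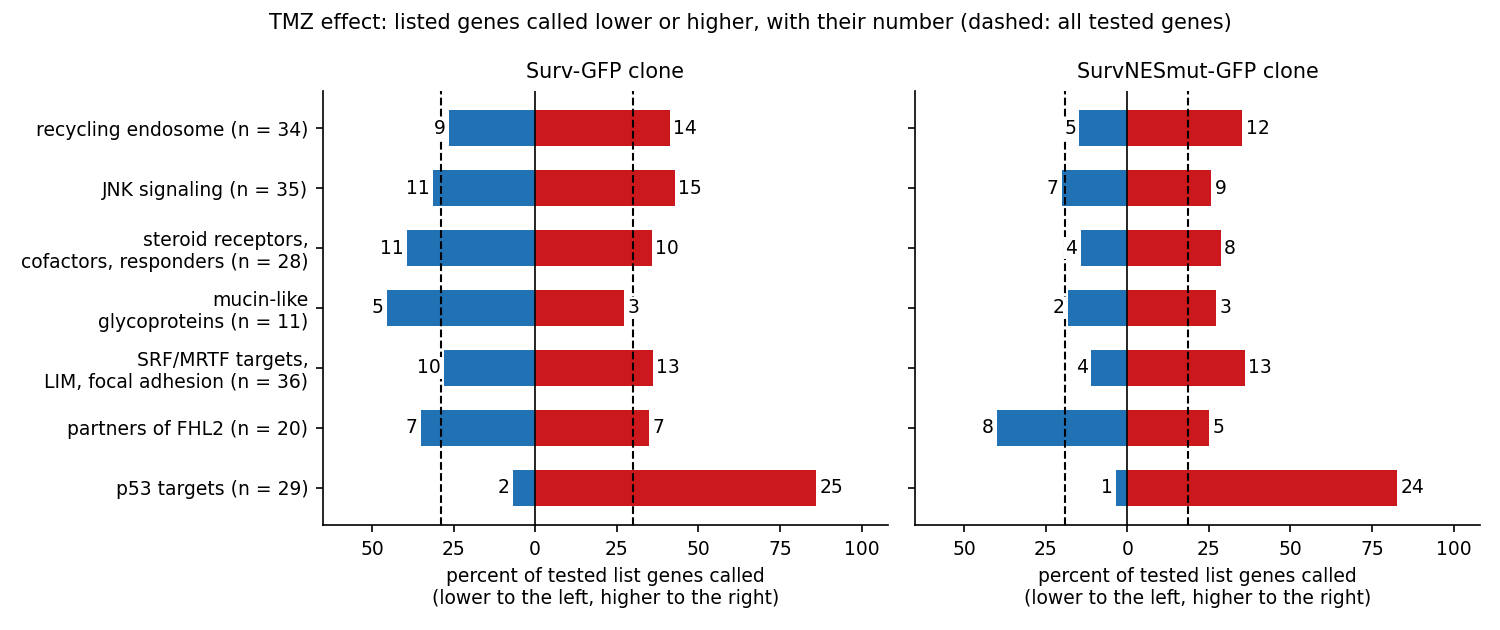
Percent of the tested genes of each list that TMZ lowered (blue, to the left) or raised (red, to the right) in the Surv-GFP (left panel) and SurvNESmut-GFP clone (right panel), with the number of genes at each bar and dashed lines for the percent of all tested genes. The p53 targets, with 25 and 24 genes raised of 29, stand out from the lists around the 5 genes, which hold genes that moved in both directions.

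Finally, the genes whose level over the 8 libraries was most like that of each of the 5 were listed by Pearson's r of log2 CPM. The libraries share 4 groups, so r mostly compares 4 group means, and a value near 1 rests on few distinct levels. PARM1 was most like TNFSF9, the ligand of the costimulatory receptor 4-1BB (r = 0.997), with log2 fold changes of 3.199 and 2.17 in Surv-GFP and SurvNESmut-GFP cells, then ZNF761 and PRNP. GREB1 was most like KITLG, the ligand of the KIT receptor (r = 0.996), with 2.49 and 1.67, then the ribosome biogenesis gene RPF2 and the hormone gene ADM2. MICALL1 was most like AEN, a nuclease gene induced by p53 (r = 0.999), with 2.58 and 1.35, then LARS and the amino acid transporter gene SLC38A1. MAPKBP1 was most like HEMK1 (r = 0.997), then PSAT1 and MTHFD2, enzymes of serine synthesis and of mitochondrial folate metabolism. PSAT1 had log2 fold changes of 1.38 and 1.55 and MTHFD2 of 1.98 and 1.71, beside 1.67 and 1.74 for MAPKBP1. FHL2 was most like IFRD1 (r = 0.999), then TRIB3, a pseudokinase gene of the stress response, with 4.19 and 1.87, and the mitochondrial chaperone gene HSPA9. Between 9 genes for MAPKBP1 and 33 for FHL2 had an r above 0.99. Within the 5, PARM1 and MICALL1 were most alike (r = 0.997) and GREB1 and FHL2 least (r = 0.699).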

How the data were processed

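The authors' deposited count table holds unnormalized whole-number read counts for 26364 genes and for 2 rows that name no gene, which took 11.2% to 14.3% (no feature) and 1.19% to 1.28% (ambiguous) of the counts and were left out. STAR 2.5.0b and Cufflinks 2.2.1 are named in the submitters' processing notes, together with edgeR. Not given in the sources used here were the counting program, the strand setting, the annotation and the genome build. The authors' 5 comparison tables, with fold changes and p-values from edgeR, were not used.

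Libraries were assigned to groups from their titles, and within a group log2 CPM had an r of 0.994 to 0.996 across genes. The tests were run in edgeR 4.0.16 under R 4.3.3 (quasi-likelihood F test, TMM, filter by group) in a model with 4 group means over 8 libraries, with Benjamini-Hochberg adjustment over 14201 genes and calls at an adjusted p of 0.05. The script was tested on simulated data. Log2 CPM used a prior count of 2. Alternatives were DESeq2 1.42.0, other scalings, filters and subsets of libraries, and the replicate letter as a block. The numbers of counts limit the precision, and the reads carry no molecular identifiers in this table.

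The 5 genes and the lists, 239 further genes, were chosen with earlier results of these data known. Up to 3 genes per list and direction with the smallest p in the TMZ effect of either clone were named, with all paralogs, the steroid receptors mentioned and 3 most similar genes per member. A few genes that this rule selects are not reported here. Sequences came from RefSeq and gene models from GENCODE 29.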

Additional observations from a re-analysis of the deposited data

Results flagged for a closer look

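A difference between the TMZ effects of the clones, by edgeR's quasi-likelihood F test at an adjusted p under 0.05, was found for 4 of the 7 tested paralogs, 2 in each direction. Of all tested genes 20.2% had a called difference below 0 and 16.6% above 0, SurvNESmut-GFP minus Surv-GFP. For the 5 genes this difference is built from the contrasts they were chosen on and is a description. The log2 difference, SurvNESmut-GFP minus Surv-GFP, was -1.22 for PARM1, -1.09 for GREB1, -1.32 for MICALL1 and -1.90 for FHL2. Among the paralogs it was -1.27 for MICAL2 (adjusted p = 1.7e-05) and -0.35 for FHL3 (adjusted p = 0.0372), which rose less in SurvNESmut-GFP cells. It was 0.30 for MICAL3 (adjusted p = 0.00291), which fell less there, and 0.44 for FHL1 (adjusted p = 0.0182), which fell in Surv-GFP cells and did not pass the test in SurvNESmut-GFP cells. MICAL2, like all 5 genes, was higher in untreated SurvNESmut-GFP cells. No group held enough libraries to look for a library far from the others.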

How the results depend on the processing

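For all 5 genes the direction and the call of both clone differences, without and with TMZ, were the same under all 16 alternatives run for each. The sign of the difference between TMZ effects was the same under all 15 for PARM1, GREB1, MICALL1 and FHL2. The log2 difference between TMZ effects of MAPKBP1 ranged from -0.00307 without Surv-GFP untreated replicate b to 0.128 without Surv-GFP untreated replicate a, so its sign was not fixed by these libraries. The counts of genes called, over all genes and over the 5, stayed within 1.5 times their value in each of 252 recalculations. With the replicate letter as a block (replicate block), GREB1 differed between untreated clones by 2.27 (edgeR adjusted p = 5.0e-11), and no call of the 5 genes changed. The letters were not found to pair the libraries, since the correlation of their deviations from group means ranged from -0.0671 to 0.0832 over 6 pairs of groups. Scaling with DESeq2 size factors or library size alone moved the CPM of the 5 genes by at most 2.203%. The most similar genes depended on the measure: of 3 genes each, Spearman's rho kept 2 for GREB1 and MAPKBP1 and 0 for the others, and r over group means kept 1 for PARM1, MICALL1 and FHL2 and 0 for the others. Each group has 2 libraries whose letters are not stated to mark cultures or technical duplicates, and 1 clone per construct leaves clone and construct confounded.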
